A study of Mus musculus with 12 samples.

Results

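The carotid artery of the mouse expressed 161 long intergenic noncoding RNAs (lincRNAs) above a set level. They are the rows that the deposited gene table types as lincRNA and whose FPKM (read fragments corrected for gene length and for the size of the library) averaged at least 1 over the 4 groups of the study, out of 2769 lincRNA rows and 35275 rows in all. The imprinted Meg3, Rian, Mirg and H19 were left out by name, and of these only Meg3, with a mean of 2.33 FPKM, would otherwise have entered. The members were thus selected on their mean FPKM over the 4 groups, and levels are given below as a description. The last row inside the limit, named after a clone, had a mean of 1.00 FPKM, after Gm26816 with 1.01 and Gm17388 with 1.02 FPKM, and the first outside were RP24-287C2.2, Gm26873 and RP23-25K16.1 with 0.999, 0.992 and 0.990 FPKM.

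RNA-seq was carried out on carotid arteries of 10-week-old C57BL/6 mice, comparing homozygous Poldip2-/- mice with littermate controls. In the Poldip2-/- line exon 4 of Poldip2 was excised in the whole body by an EIIa-Cre deleter, and the Cre was then bred out, so that every cell type lacks the exon and a difference in the artery wall need not start there. RNA flushed from the lumen with a lysis reagent is the endothelial sample, and RNA of the leftover vessel, which holds the media and the adventitia, is the medial sample. The labels list 2 endothelial and 4 medial samples of each genotype, whereas the published description gives 4 mice for every group, so that the number of libraries behind an endothelial value is not known. The table gives 1 FPKM value for each of the 4 groups, without a spread between animals. No ratio below therefore has a replicate check, and none was tested. A member is counted as higher or lower when the ratio of FPKM + 1 is at least 2-fold. Beside it stands the share of all 12582 genes with a mean of at least 1 FPKM that passed the same fold. These genes met the same minimum but were not matched to the members by level, and their median FPKM was higher in every group.

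lincRNAs are transcripts without a recognised reading frame that lie between protein-coding genes. Some act in the nucleus as scaffolds of nuclear bodies, some are the precursors of microRNAs or small nucleolar RNAs, and some are transcribed from the start region of a coding gene in the opposite direction. In the artery wall the best known are Malat1, which resides in nuclear speckles, Neat1, the architectural RNA of paraspeckles, and Carmn, the smooth muscle host transcript of miR-143 and miR-145.

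The type given in the table held for most members in a later annotation. Of the 161, 150 had the same Ensembl identifier in GENCODE M21 on GRCm38, and each of these overlapped its position there. GENCODE M21 types 106 of them as lincRNA, 18 as antisense, 10 as transcripts from a bidirectional promoter and 9 as processed transcripts. It types 3 as protein-coding, namely 5430416O09Rik (Spaar, which encodes a small lysosomal polypeptide), Kantr and 6330403K07Rik. The members lay on 20 chromosomes, most on chromosome 4 with 15, and 142 carried a provisional symbol. Their median length was 1607 bp, against 3112 bp for the 11614 protein-coding genes of the same mean level.

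Poldip2 and cell type markers were read first, as a check of genotype and layer. Poldip2 was at 8.27 FPKM in Poldip2-/- and 21.1 FPKM in control endothelial samples, and at 10.3 FPKM in Poldip2-/- and 35.9 FPKM in control medial samples; the remaining reads can come from the exons that are still present. The 5 endothelial markers (Pecam1, Vwf, Icam2, Nos3 and Cdh5) summed to 3322 FPKM in Poldip2-/- and 3121 FPKM in control endothelial samples, against 65.1 and 118 FPKM in Poldip2-/- and control medial samples. The 5 smooth muscle markers (Acta2, Tagln, Myh11, Cnn1 and Myocd) summed to 19803 FPKM in Poldip2-/- and 5236 FPKM in control medial samples, and all 5 were at least 2-fold higher in Poldip2-/-. The other cell types of the leftover vessel went the opposite way: 6 fibroblast markers summed to 3271 FPKM in Poldip2-/- and 8202 FPKM in control medial samples, 6 leukocyte markers to 589 and 2946 FPKM, and 5 fat cell markers to 298 and 969 FPKM. In the endothelial samples the smooth muscle markers summed to 431 FPKM in Poldip2-/- and 139 FPKM in controls, and the fibroblast markers to 115 and 298 FPKM. No marker of these 5 lists was at 0 in any group. In bulk RNA fewer cells of a type and less RNA per cell cannot be told apart, and the part of these shifts in the lincRNA ratios of either layer was not tested.

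**Figure D1:**
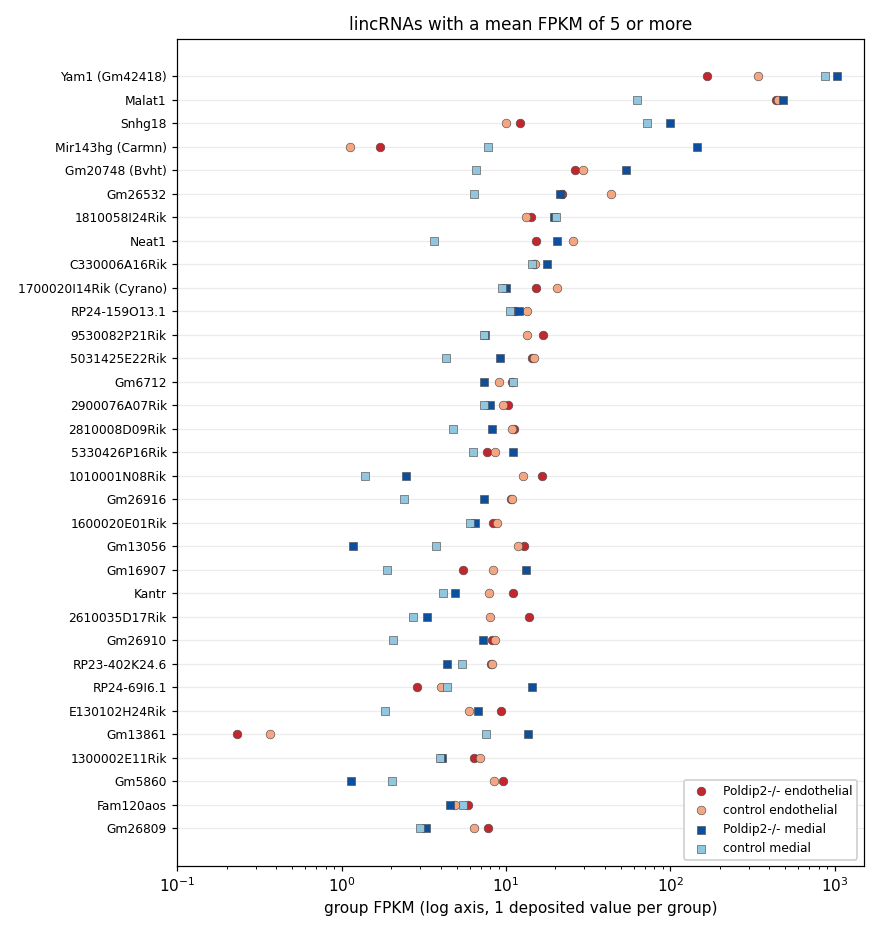
Group FPKM (log axis) of the 33 lincRNAs with a mean of at least 5 FPKM, ordered by mean, with circles for endothelial and squares for medial samples, and dark symbols for Poldip2-/- and light symbols for controls. In the control medial group, Malat1, Gm26532 and Neat1 stand to the left of the other 3 groups, at 62.8, 6.41 and 3.63 FPKM.

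A pair of RNAs made up most of the lincRNA signal. Yam1 and Malat1 together took 50.4% and 56.6% of the summed FPKM of the 161 members in Poldip2-/- and control endothelial samples, and 64.7% and 64.9% in Poldip2-/- and control medial samples. Below them, 11 members averaged 10 to 100 FPKM, 20 averaged 5 to 10, 54 averaged 2 to 5 and 74 averaged 1 to 2 FPKM. In 75 members all 4 groups reached 1 FPKM. In 10 only 1 group did, and these had to differ between groups to be members at all: Gm27202, RP23-402A16.1 and Gm12319 passed through the Poldip2-/- medial group, and AI662270, RP23-330B16.1, Gm13174, 2210017G18Rik, RP24-317L8.1, RP23-308G10.2 and 1 other row named after a clone through the control medial group. The highest and the lowest group were within 2-fold of each other in 39 members and at least 10-fold apart in 34.

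The control medial group held the lowest value of 74 members (46.0%), against 26.0% of all genes. The highest value was in the Poldip2-/- medial group for 57 members (35.4%), against 20% of all genes. The Poldip2-/- endothelial group held the highest value of 44 members (27.3%), against 27.2% of all genes. The control medial group held it for 34 (21.1%), against 34.3%, and the control endothelial group for 26 (16.1%), against 18.4%.

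Yam1 was the most abundant member, with 166 FPKM in Poldip2-/- and 340 FPKM in control endothelial samples and with 1037 FPKM in Poldip2-/- and 878 FPKM in control medial samples (log2 ratio of the layers 2.63 in Poldip2-/- and 1.37 in controls, 0.95 in controls on the scaled counts). GENCODE M21 names this row Gm42418 (chr17:39846958-39848788, GRCm38), and it overlaps ribosomal RNA sequence. Its level was high where that of Lars2, another row with ribosomal RNA sequence, was high: Lars2 stood at 730 FPKM in Poldip2-/- and 1396 FPKM in control endothelial samples, and at 3169 FPKM in Poldip2-/- and 2650 FPKM in control medial samples. Gm26917, on the same list and no member, followed Yam1 less closely. It had 59.6 and 92.3 FPKM in Poldip2-/- and control endothelial samples, and 255 and 106 FPKM in medial samples. Its medial genotype log2 ratio was 1.25, against 0.24 for Yam1. The share of ribosomal RNA in each library was not tested as a source of the Yam1 values.

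Malat1, the abundant transcript of nuclear speckles, lies at chr19:5795690-5802672 (GRCm38), and Neat1, the scaffold of paraspeckles, at chr19:5824708-5845478 beside it. Malat1 and the Neat1 transcript of 20771 bases are known to end at an RNase P cut, without an added poly(A) tail. The cut lies next to a stretch in which U-rich and A-rich parts pair into a stable triple helix. Any shorter Neat1 transcript is not covered here. Since the libraries were made from RNA captured on poly-T, this end is shown for both. The 120 bases that close this stretch are given as transcript sequence from GENCODE M21 (GRCm38, minus strand of chromosome 19, chr19:5795982-5796101 for Malat1 and chr19:5824708-5824827 for Neat1, T written for U), with runs of at least 10 bases that both RNAs share in capitals.
Malat1: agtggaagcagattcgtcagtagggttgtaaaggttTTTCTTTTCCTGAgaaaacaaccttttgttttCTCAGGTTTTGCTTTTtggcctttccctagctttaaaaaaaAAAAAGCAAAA
Neat1: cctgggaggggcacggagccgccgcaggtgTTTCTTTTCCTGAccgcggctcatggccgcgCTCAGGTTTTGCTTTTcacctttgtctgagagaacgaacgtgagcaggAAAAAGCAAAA
Both hold the same 3 runs in the same order, and the last run closes both stretches. The run of A before the end is 12 bases in Malat1 and 5 bases in Neat1. The Malat1 transcript of 6983 bases goes on for another 292 bases in the annotation, and that of Neat1, with 20771 bases, ends here.

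Malat1 was at 441 FPKM in Poldip2-/- and 454 FPKM in control endothelial samples. In the medial layer it was at 484 FPKM in Poldip2-/- and 62.8 FPKM in control samples, a 7.70-fold difference (log2 ratio 2.93). The value that stood apart was that of the control medial group, while the other 3 lay within 441 to 484 FPKM. Neat1 was likewise lowest in the control medial group, with 20.6 FPKM in Poldip2-/- and 3.63 FPKM in control medial samples (5.67-fold, log2 ratio 2.22), and with 15.3 FPKM in Poldip2-/- and 25.5 FPKM in control endothelial samples. Frmd8, the protein-coding gene nearest to Neat1 at 4224 bp, had 7.97 FPKM in Poldip2-/- and 9.32 FPKM in control medial samples, and thus did not share the medial difference.

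Of the other nuclear lncRNAs on the same list, Tug1 is typed as processed transcript and is no member. It had 9.16 FPKM in Poldip2-/- and 8.60 FPKM in control medial samples. Firre, likewise no member, had 8.98 and 3.47 FPKM. Xist was near 0 in all 4 groups, at 0.027 FPKM or less.

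**Figure D2:**
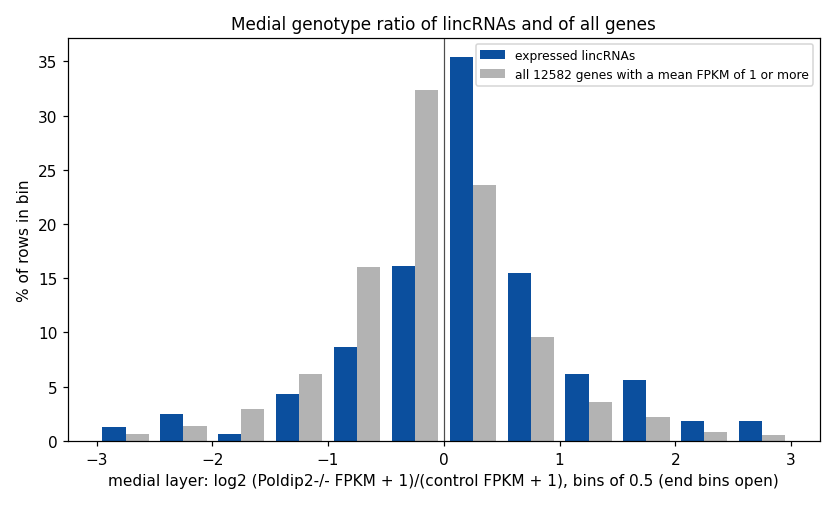
Share of rows (%) by log2 ratio of Poldip2-/- over control FPKM + 1 in the medial layer, in bins of 0.5 with open end bins, for the 161 lincRNAs (dark bars) and for all 12582 genes with a mean of at least 1 FPKM (grey bars). The lincRNA bars exceed the grey bars in every bin above 0, with 35.4% against 23.6% in the bin from 0 to 0.5. They also exceed them in the lowest bins, with 1.24% against 0.67% below -2.5 and 2.48% against 1.35% from -2.5 to -2.

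The medial layer held the larger genotype differences among lincRNAs. In Poldip2-/- medial samples 25 of the 161 members (15.5%) were at least 2-fold higher than in controls, where the share of all genes was 7.17%. Another 14 (8.70%) were at least 2-fold lower, where the share of all genes was 11.2%. Both counts include members that reached 1 FPKM only in the medial group where they were high, such as Gm27202 and AI662270. Over all 2769 lincRNA rows, including those left out by name and mostly below the limit of 1 FPKM, the balance was the opposite, with 33 higher and 231 lower. No share of all genes without that limit was counted, so this balance cannot be read as particular to lincRNAs. The median log2 ratio was 0.22 over the members and -0.15 over all genes, and 107 members (66.5%) had a ratio above 0, against 40.3% of all genes. On the scaled mean counts that the table also holds, the median of all genes was 0.05 and that of the members 0.52, so that the members' median stood above that of all genes by 0.36 on the FPKM scale and by 0.48 on the count scale. Across all genes the medial ratio went with gene length (Spearman rho 0.31 over 12582 genes, as a description), and after centring each ratio on genes of like length the members' median was 0.50.

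The counts are also given by mean level, which includes the Poldip2-/- medial value itself, so that a high value there can move a member into the upper class, as it did for Mir143hg. Of the 33 members with a mean of at least 5 FPKM, 10 were at least 2-fold higher in Poldip2-/- medial samples and 1 was lower, against 7.18% and 9.42% of the 8428 genes of that level. Of the 74 members with a mean of 1 to 2 FPKM, 8 were higher and 9 lower, against 5.27% and 19.7% of 1707 genes.

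On the scale of FPKM + 1 the largest medial difference belonged to Mir143hg, which GENCODE M21 names Carmn, the smooth muscle lncRNA that hosts miR-143 and miR-145. It had 146 FPKM in Poldip2-/- and 7.81 FPKM in control medial samples, an 18.7-fold difference (log2 ratio 4.06), and only 1.72 FPKM in Poldip2-/- and 1.12 FPKM in control endothelial samples. Gm20748, named Bvht (Braveheart) by GENCODE M21 and known in the mouse for its role in heart muscle commitment, lies next to it on the opposite strand. It had 54.1 FPKM in Poldip2-/- and 6.59 FPKM in control medial samples (8.20-fold, log2 ratio 2.86). Unlike Mir143hg it was also abundant in endothelial samples, with 26.2 FPKM in Poldip2-/- and 29.4 FPKM in controls. Il17b, the nearest protein-coding gene of both and 22398 bp from Mir143hg, had 19.9 FPKM in Poldip2-/- and 3.58 FPKM in control medial samples and at most 0.112 FPKM in endothelial samples. The smooth muscle markers were higher in the same medial samples, with log2 ratios of 1.54 to 3.11, and their part in these values was not tested.

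The 5 largest medial differences upwards by FPKM + 1 took in Malat1 and 2 less abundant members beside this pair. 6430590A07Rik had 6.91 FPKM in Poldip2-/- and 0.498 FPKM in control medial samples (log2 ratio 2.40), and 4.36 and 2.60 FPKM in Poldip2-/- and control endothelial samples. Gm16907 had 13.3 FPKM in Poldip2-/- and 1.88 FPKM in control medial samples (log2 ratio 2.31), and 5.49 and 8.28 FPKM in Poldip2-/- and control endothelial samples. Both overlap a coding gene on the other strand: 3110057O12Rik, with 2.68 and 1.38 FPKM in Poldip2-/- and control medial samples, and 2010111I01Rik, with 58.2 and 27.0 FPKM. Gm26532, one of the 10 most abundant members, had 21.4 FPKM in Poldip2-/- and 6.41 FPKM in control medial samples (log2 ratio 1.59), but in the endothelial samples 21.9 FPKM in Poldip2-/- and 43.4 FPKM in controls (log2 ratio -0.95, just inside the 2-fold limit). For these 3 members, as for Malat1, the control medial group was the lowest of the 4.

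The 14 members that were at least 2-fold lower in the Poldip2-/- medial layer were mostly RNAs of low level. Some of them, with Gm13174, RP23-330B16.1 and AI662270 among these, reached 1 FPKM only in the control medial group and are members through it. Gm26870, at the start of chromosome 9 (chr9:3000282-3038313, GRCm38), had 0.0347 FPKM in Poldip2-/- and 10.3 FPKM in control medial samples (log2 ratio -3.45). It was lower in endothelial samples too, with 0.673 FPKM in Poldip2-/- and 2.82 FPKM in controls (log2 ratio -1.19). This end of the chromosome holds satellite repeats. The row Gm10722, which it overlaps, showed nearly the same values, with 0 and 10.8 FPKM in Poldip2-/- and control medial samples, and reads of these rows cannot be told apart where they share sequence. Gm12162 was listed at 0 in Poldip2-/- medial samples and had 6.31 FPKM in controls, and Gm13174 was listed at 0 and had 4.52 FPKM in controls. RP23-330B16.1 had 0.0194 and 4.32 FPKM in Poldip2-/- and control medial samples, and RP24-74G12.5 had 0.926 and 8.96 FPKM. In each of these 5 rows the control value was also the higher one in endothelial samples, for example 0.114 FPKM in Poldip2-/- and 1.20 FPKM in controls for RP24-74G12.5.

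The breadth of detection differed in the same direction. Of all 2769 lincRNA rows, 46.6% were above 0 in Poldip2-/- and 73.5% in control endothelial samples, and 41.3% in Poldip2-/- and 84.7% in control medial samples. Genes that arteries are not known to use, a list of 8 that includes Alb, Ins2 and Prm1, summed to 0.289 FPKM in Poldip2-/- and 1.27 FPKM in control endothelial samples and to 5.02 and 8.79 FPKM in Poldip2-/- and control medial samples. Cela1 alone had 4.49 and 4.16 FPKM in Poldip2-/- and control medial samples, and the other 7 genes summed to 0.533 and 4.63 FPKM. Depth and breadth of each library could not be read from the group values, and their part in the low members was not tested. Among the rest, AI662270 had 0.933 FPKM in Poldip2-/- and 6.71 FPKM in control medial samples (7.19-fold lower). Gm13056 was the only lower member with a mean of at least 5 FPKM, with 1.17 FPKM in Poldip2-/- and 3.75 FPKM in control medial samples (log2 ratio -1.13), and centring on the median of all genes moved it to -0.99.

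**Figure D3:**
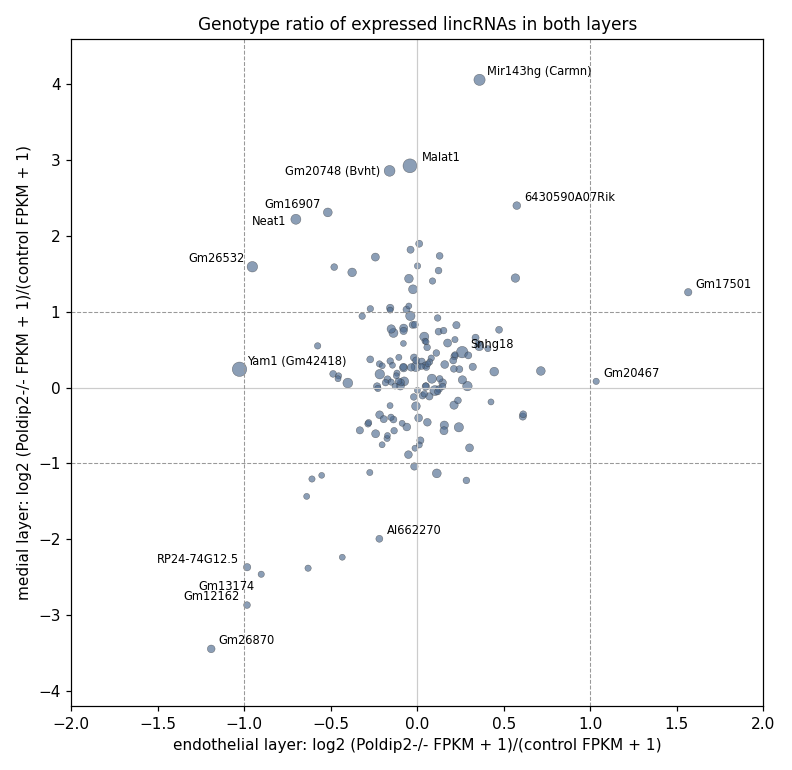
Log2 ratio of Poldip2-/- over control FPKM + 1 in the endothelial layer (x) and the medial layer (y) for the 161 lincRNAs, with point size by mean FPKM and dashed lines at 2-fold. Most points spread along the vertical axis, with Mir143hg at 4.06 and Gm26870 at -3.45, and only Gm17501 lies beyond both lines upwards.

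The endothelial layer held few genotype differences. In Poldip2-/- endothelial samples 2 members (1.24%) were at least 2-fold higher than in controls, where the share of all genes was 0.397%, and 2 (1.24%) were at least 2-fold lower, where that share was 1.49%. The median log2 ratio was -0.02 over the members and 0.03 over all genes. Gm17501 and Gm20467 were the higher ones, and Yam1 and Gm26870 the lower ones. In 120 members the genotypes were within 2-fold in both layers, 24 were higher in the medial layer only and 13 lower in the medial layer only. No member was at least 2-fold higher in one layer and lower in the other, but few passed 2-fold in the endothelial layer at all. These joint counts were not made over all genes. The ratios of the layers were loosely related across the members (Spearman rho 0.18 over 161 lincRNAs and 0.05 over 12582 genes, as a description, with values of different libraries that may come from the same mice).

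Both members that were higher in Poldip2-/- endothelium start next to a coding gene that points the other way. Gm17501 (chr3:145650312-145652093, GRCm38) had 6.84 FPKM in Poldip2-/- and 1.65 FPKM in control endothelial samples (4.15-fold, log2 ratio 1.57), and 2.67 and 0.533 FPKM in Poldip2-/- and control medial samples (log2 ratio 1.26). Cyr61, which lies 327 bp away and encodes a secreted matrix-bound protein of the YAP response, had 1255 FPKM in Poldip2-/- and 659 FPKM in control endothelial samples, and 451 and 87.0 FPKM in Poldip2-/- and control medial samples. Gm20467 had 4.02 FPKM in Poldip2-/- and 1.45 FPKM in control endothelial samples (2.77-fold, log2 ratio 1.03), and at most 0.0937 FPKM in medial samples. After centring on genes of like length its endothelial ratio was 0.93, inside the 2-fold limit. Its neighbour Nkx2-3, a homeobox factor of the endothelium, lies 1700 bp away. Nkx2-3 had 14.6 FPKM in Poldip2-/- and 6.09 FPKM in control endothelial samples, and 0.560 and 0.462 FPKM in Poldip2-/- and control medial samples. Gm17501 and Cyr61 were both higher in the Poldip2-/- than in the control group of each layer, and Gm20467 and Nkx2-3 in the endothelial layer. The medial values of Gm20467 and Nkx2-3 were low and differed little between genotypes (log2 ratios 0.08 and 0.09).

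The start regions of these pairs overlap in RefSeq, for Gm20467 only from the start closer to Nkx2-3. The windows from 250 bases before to 50 bases after the start of the lincRNA are therefore shown (GRCm38.p6, 5' to 3' on its strand). Capitals mark the bases that also lie in the window of the same length around the start of the coding gene. The Gm17501 window is chr3:145649827-145650126 on the plus strand and shares 191 bases with that of Cyr61 (Ccn1 in RefSeq), whose start is 90 bases away. The Gm20467 window, from the start closer to Nkx2-3 of 2 that RefSeq gives, is chr19:43612007-43612306 on the minus strand and shares 232 bases, with the starts 267 bases apart. The window of the other Gm20467 start shares 0 bases, with the starts 629 bases apart. That other start is the nearer to the 5' end given for the deposited row.
Gm17501: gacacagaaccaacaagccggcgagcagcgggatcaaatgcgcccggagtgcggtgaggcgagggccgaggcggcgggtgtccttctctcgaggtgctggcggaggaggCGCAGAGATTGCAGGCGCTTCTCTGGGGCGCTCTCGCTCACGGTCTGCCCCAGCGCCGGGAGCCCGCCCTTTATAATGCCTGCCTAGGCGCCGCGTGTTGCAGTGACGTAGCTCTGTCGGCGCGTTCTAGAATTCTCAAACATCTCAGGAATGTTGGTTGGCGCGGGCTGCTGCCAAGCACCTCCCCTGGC
Gm20467: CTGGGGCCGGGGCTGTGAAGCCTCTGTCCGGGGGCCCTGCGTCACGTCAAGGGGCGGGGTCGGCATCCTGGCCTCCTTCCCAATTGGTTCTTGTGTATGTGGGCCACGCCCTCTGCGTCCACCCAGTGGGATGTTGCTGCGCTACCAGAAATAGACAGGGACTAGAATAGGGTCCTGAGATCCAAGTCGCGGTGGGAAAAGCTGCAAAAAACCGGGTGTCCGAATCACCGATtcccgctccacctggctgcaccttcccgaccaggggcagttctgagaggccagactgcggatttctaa
The windows shown hold 29 and 17 CpG for Gm17501 and Gm20467, and the other Gm20467 window holds 8. The median is 13 over the windows of 90 members and 7 over 32851 windows of all genes.

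**Figure D4:**
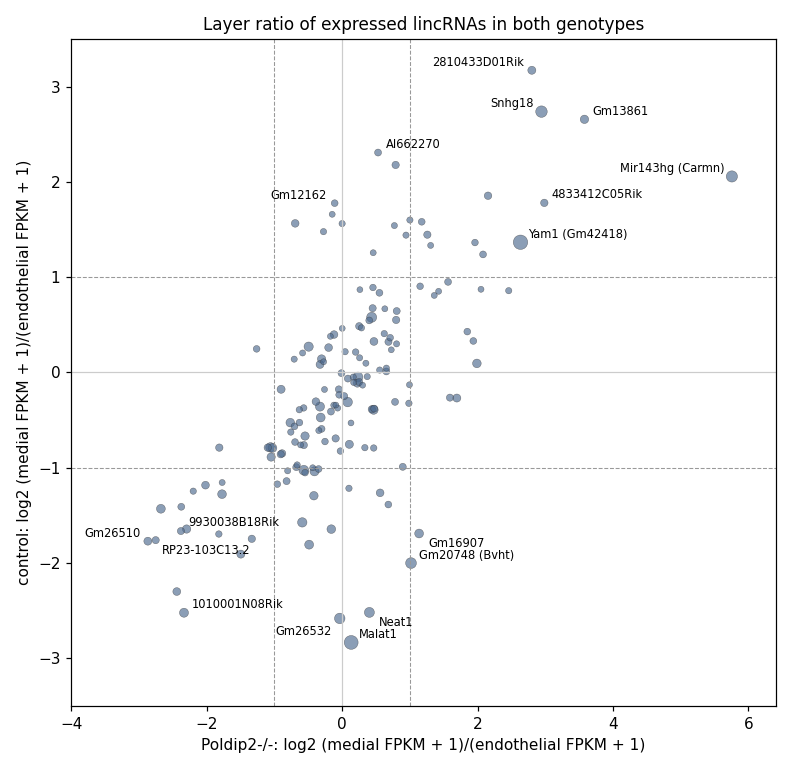
Log2 ratio of medial over endothelial FPKM + 1 in Poldip2-/- (x) and in controls (y) for the 161 lincRNAs, with point size by mean FPKM and dashed lines at 2-fold. Malat1, Neat1 and Gm26532 lie at the bottom near the middle, close to 0 in Poldip2-/- and at -2.83, -2.52 and -2.58 in controls.

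Between the layers, 26 members (16.1%) were at least 2-fold higher in medial than endothelial samples of Poldip2-/- mice, where the share of all genes was 13.7%, and 21 (13.0%) were at least 2-fold lower, where that share was 12.9%. In controls 23 members (14.3%) were at least 2-fold higher in the medial samples, where the share of all genes was 17.1%, and 35 (21.7%) were at least 2-fold lower, where that share was 12.9%. The median log2 ratio in controls was -0.24 over the members and 0.03 over all genes, and on the scaled counts -0.75 and -0.38, with 28 members higher and 69 lower. Centring on genes of like length gave 13 higher and 51 lower. The share of all genes at 2-fold was not counted on either of these scales. Above 0 were 31.7% of the members and 35.6% of all genes on the scaled counts, and 30.4% and 49.9% after length centring. In Poldip2-/- the medians were 0.03 over the members and -0.11 over all genes. Across members the layer ratios of the genotypes had a Spearman rho of 0.65, and across all genes 0.71, as a description.

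A group of 13 members was higher in the medial layer of both genotypes, and no like joint count was made over all genes. Snhg18, which hosts a small nucleolar RNA, was the most abundant after Yam1, with 100 FPKM in medial and 12.1 FPKM in endothelial samples of Poldip2-/- mice (8.25-fold), and 72.2 and 9.98 FPKM in medial and endothelial samples of controls (7.23-fold). It starts 151 bp from Sema5a, an axon guidance semaphorin, which had 10.2 and 0.308 FPKM in medial and endothelial samples of Poldip2-/- mice, and 1.88 and 0.297 FPKM in those of controls. Mir143hg was 84.9-fold higher in medial than endothelial samples of Poldip2-/- mice and 6.99-fold higher in those of controls. Gm13861 had 13.7 and 0.229 FPKM in medial and endothelial samples of Poldip2-/- mice, and 7.59 and 0.364 FPKM in those of controls. It lies antisense within Cald1, the gene of the smooth muscle actin-binding caldesmon, which had 245 and 34.2 FPKM in medial and endothelial samples of Poldip2-/- mice. 2810433D01Rik had 6.56 and 0.0838 FPKM in medial and endothelial samples of Poldip2-/- mice, and 10.5 and 0.281 FPKM in those of controls. Gm10687, antisense to Mcam, an adhesion molecule of the vessel wall, had 4.22 and 0.340 FPKM in medial and endothelial samples of Poldip2-/- mice, and 2.10 and 0.206 FPKM in those of controls.

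4833412C05Rik belongs to the same group and carried a match to the CArG box, the binding site of serum response factor in smooth muscle genes, as 1 of the 13 windows of members at least 2-fold higher in the medial layer of Poldip2-/-. It had 8.03 and 0.140 FPKM in medial and endothelial samples of Poldip2-/- mice, and 3.36 and 0.270 FPKM in those of controls, and was 2.39-fold higher in Poldip2-/- than in control medial samples. Its start window in RefSeq is chr7:67803447-67803746 (GRCm38.p6, minus strand), with the match in capitals.
4833412C05Rik: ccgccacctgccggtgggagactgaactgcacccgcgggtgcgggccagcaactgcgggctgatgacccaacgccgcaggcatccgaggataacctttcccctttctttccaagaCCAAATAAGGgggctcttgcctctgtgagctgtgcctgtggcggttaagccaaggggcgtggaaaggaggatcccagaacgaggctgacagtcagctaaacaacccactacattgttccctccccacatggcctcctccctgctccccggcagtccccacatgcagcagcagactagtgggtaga
RefSeq windows of 300 bases were at hand for 90 members. On either strand 2 of the 90 (2.22%) held a CArG box, against 1.63% of all 32851 windows, and 5 (5.56%) held the AP-1 site TGANTCA, against 7.81%. A match describes the letters of the window and no binding.

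A group of 15 members was lower in medial than endothelial samples of both genotypes, again without a like joint count over all genes. 1010001N08Rik, which overlaps Gata6, an endothelial and heart transcription factor, on the other strand, had 2.47 and 16.5 FPKM in medial and endothelial samples of Poldip2-/- mice, and 1.38 and 12.7 FPKM in those of controls. Gata6 itself had 38.9 and 106 FPKM in medial and endothelial samples of Poldip2-/- mice. Gm26510 had 0.285 and 8.39 FPKM in medial and endothelial samples of Poldip2-/- mice, and 1.23 and 6.61 FPKM in those of controls. RP23-103C13.2 had 0.0423 and 6.03 FPKM in medial and endothelial samples of Poldip2-/- mice, and 0.359 and 3.60 FPKM in those of controls. It lies 337 bp from 1500015O10Rik, on the same strand, which had 6.70 and 219 FPKM in medial and endothelial samples of Poldip2-/- mice. 9930038B18Rik had 0.0578 and 4.51 FPKM in medial and endothelial samples of Poldip2-/- mice, and 0.715 and 4.44 FPKM in those of controls. 5430416O09Rik (Spaar) had 0.370 and 6.44 FPKM in medial and endothelial samples of Poldip2-/- mice, and 0.758 and 7.66 FPKM in those of controls. In endothelial samples the genotypes differed by less than 2-fold in each of these 5 members.

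In 18 members the layers were within 2-fold in Poldip2-/- mice, whereas the medial samples were at least 2-fold lower in controls. Malat1, Neat1, Gm26532 and 1700020I14Rik belong here. Malat1 had 484 and 441 FPKM in medial and endothelial samples of Poldip2-/- mice, and 62.8 and 454 FPKM in those of controls (log2 ratios 0.13 and -2.83 in Poldip2-/- and control mice). 1700020I14Rik, known as Cyrano or Oip5os1 and as the RNA that triggers decay of miR-7, had 9.93 and 15.2 FPKM in medial and endothelial samples of Poldip2-/- mice, and 9.49 and 20.4 FPKM in those of controls, so that its genotypes differed little in the medial layer. Gm20748 and Gm16907 were at least 2-fold higher in the medial samples of Poldip2-/- mice and at least 2-fold lower in those of controls. No member showed the reverse, and these joint patterns were not counted over all genes. After length centring the ratio of Gm20748 in Poldip2-/- was 0.95, inside the 2-fold limit.

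On a list of 20 hosts of small nucleolar RNAs, 7 were members. Of the 16 on the list with a mean of at least 1 FPKM, 0 were at least 2-fold different between genotypes in the medial layer, where 7.17% of all genes were higher and 11.2% lower, and their median log2 ratio was 0.29. Snhg6 had 5.0 FPKM in Poldip2-/- and 4.02 FPKM in control medial samples, and 4.13 and 4.43 FPKM in Poldip2-/- and control endothelial samples. Snhg1 had 2.89 and 2.22 FPKM in Poldip2-/- and control medial samples, and Snhg12 had 2.89 and 2.01 FPKM. Snhg4 had 1.86 and 1.31 FPKM, and Snhg7 had 1.21 and 0.938 FPKM in Poldip2-/- and control medial samples. The row 2810008D09Rik, which GENCODE M21 names Snhg20, had 8.18 and 4.77 FPKM in Poldip2-/- and control medial samples. Each of the 7 member hosts, Snhg18 included, thus had the higher value in the Poldip2-/- medial group, by less than 2-fold. Snhg15 and Snhg14, which are on the list but are no members, had the lower value there, with 6.16 and 8.24 FPKM for Snhg15 and 1.35 and 1.70 FPKM for Snhg14 in Poldip2-/- and control medial samples.

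Pvt1, the neighbour of Myc and a host of several microRNAs, had 2.60 and 1.81 FPKM in Poldip2-/- and control medial samples, and 2.39 and 1.94 FPKM in Poldip2-/- and control endothelial samples. C330006A16Rik had 17.7 and 14.4 FPKM in Poldip2-/- and control medial samples, and 14.9 FPKM in both endothelial groups. 1810058I24Rik had 19.7 and 20.2 FPKM in Poldip2-/- and control medial samples, and at most 14.3 FPKM in the endothelial groups. These 3 were among the members whose 4 groups lay within 2-fold of each other.

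A430104N18Rik, which GENCODE M21 names Mir142hg, hosts miR-142, a microRNA of blood cells. It had 2.07 and 0.239 FPKM in medial and endothelial samples of Poldip2-/- mice, and 2.01 and 0.197 FPKM in those of controls. Ptprc, the pan-leukocyte marker CD45, had 1.68 FPKM in Poldip2-/- and 5.02 FPKM in control medial samples, so that the host did not share the lower value of this marker. The mature miR-142 arms, encoded within the row at chr11:87756867-87756887 and chr11:87756903-87756925 (RefSeq, GRCm38.p6, plus strand), are shown with the seed, bases 2 to 8, in capitals, since the seed sets the targets of a microRNA.
mmu-miR-142a-5p: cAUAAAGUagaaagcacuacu
mmu-miR-142a-3p: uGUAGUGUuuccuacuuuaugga
The libraries measured the host and not these small RNAs.

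**Figure D5:**
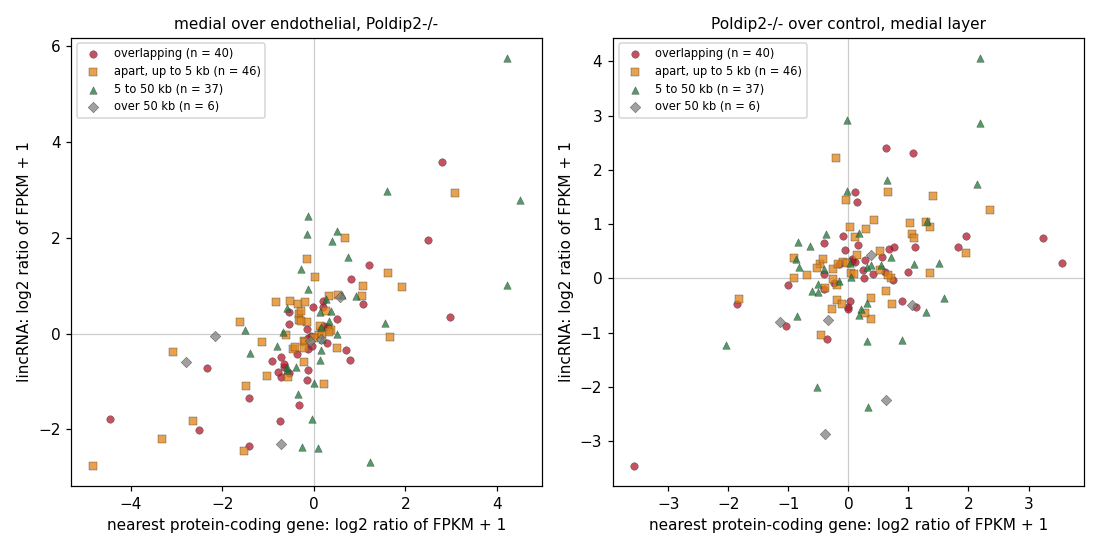
Log2 ratio of FPKM + 1 of each lincRNA (y) against that of its nearest protein-coding gene (x), for medial over endothelial samples of Poldip2-/- mice (left) and for Poldip2-/- over control medial samples (right), with symbols by distance and pairs whose coding gene averages at least 1 FPKM. Points rise along the diagonal most clearly for overlapping pairs on the left (rho 0.79, n = 40).

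The choice of members used no value of a neighbouring gene. It did use position through the lincRNA type, which is given to transcripts between protein-coding genes. The distances below are therefore not independent of that choice. The nearest protein-coding row overlapped the lincRNA in 48 members, 40 of them on the opposite strand, and lay apart by up to 5 kb in 53, by 5 to 50 kb in 48 and by more in 12. Of the 53, 28 stood head to head with the coding gene. The layer ratios of the lincRNA and of the coding gene in Poldip2-/- mice had a Spearman rho of 0.79 in 40 overlapping pairs, 0.61 in 46 pairs up to 5 kb apart and 0.47 in 37 pairs at 5 to 50 kb. The medial genotype ratios had rho values of 0.44, 0.40 and 0.25 in the same classes, the layer ratios in controls 0.30, 0.35 and -0.02, and the endothelial genotype ratios 0.51, 0.13 and -0.24. These values describe genes that share libraries and are no replicates. In the medial genotype comparison 11 of 129 pairs were at least 2-fold different in the same direction and 0 in opposite directions. Between the layers 18 pairs shared a direction and 1 was opposite in Poldip2-/- mice, and 19 shared a direction and 2 were opposite in controls. No like count was made over other pairs of genes. The kit is not stated to keep the strand, so that reads of a lincRNA and of a coding gene that overlaps it on the other strand cannot be told apart, and the values of Gm13861, Gm10687, 1010001N08Rik, 6430590A07Rik and Gm16907 carry this limit.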

How the data were processed

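The deposited gene table was used. Paired reads of low-input poly-T selected libraries were aligned by the authors with TopHat to mm9, as the methods state, and the deposited FPKM are 1 value per group, with the combination of samples not given in the sources used here. The coordinates of the table are those of GRCm38. The table also holds scaled mean counts of each group in each comparison, a score that the authors scaled within each comparison, so that a group has 1 value in each. These served as an alternative scale. Columns with fold changes and p-values of the authors' 6 comparisons were not used. A further 24 columns carry animal numbers that no label ties to a genotype. They were left out, so that depth, spread and count tests per sample are not given.

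Members and gene lists were chosen with earlier results of these data known. Ratios are log2 of FPKM + 1 (Python 3.11.15, pandas 2.3.3), folds are ratios of FPKM with nothing added, and 2-fold was counted over 12582 genes with a mean of at least 1 FPKM. The calculation was tested on simulated data. Named members are the 10 with the highest mean, the 5 largest differences in each direction of the 4 comparisons among those at least 2-fold different, and members on the lists, 37 in all. Others named were chosen after their values were seen. Nearest coding genes were found from positions in the table. Sequences are from RefSeq (GRCm38.p6) and GENCODE M21.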

Additional observations from a re-analysis of the deposited data

How the results depend on the processing

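No result had a replicate check, and leaving out 1 replicate at a time was not run, because the table ties no single-sample column to a genotype. No paired analysis was possible because the group columns hold no single samples. Counts of members at least 2-fold different moved by more than 1.5 times under several alternatives, and the cause was not tested except where fewer rows entered. The counts that follow stand without shares of all genes. Those were counted at 2-fold only for the minimum mean of 5 FPKM, so that the other counts cannot be read as particular to lincRNAs. With a pseudocount of 0.1, 13 members were lower in the Poldip2-/- endothelial layer and 23 in the medial layer, while between the layers (medial over endothelial) 43 were higher and 37 lower in Poldip2-/- and 53 lower in controls. On the scaled mean counts, the genotype comparison gave 13 lower members in endothelial samples, and 51 higher with 22 lower in medial samples; 47 were higher and 35 lower between the layers of Poldip2-/-, and 69 lower between those of controls. Without a minimum level the balance turned in 2 comparisons: 32 lincRNAs were higher and 231 lower in the Poldip2-/- medial layer (12.2% higher), and 123 were higher and 36 lower between the layers of controls (77.4% higher). Between the layers of Poldip2-/- 41 were then higher and 26 lower. With a minimum mean of 5 FPKM, which leaves 33 members, the endothelial layer held 0 higher and 1 lower, the medial layer 10 higher and 1 lower, the layers of Poldip2-/- 7 higher and 7 lower, and those of controls 4 higher and 15 lower. Centring on the median of all genes gave 4 lower in the endothelial layer. Centring on genes of like length gave 1 higher in the endothelial layer, 9 lower in the medial layer and 13 higher between the layers of controls. The higher share of the 2-fold members in the medial genotype comparison was 64.1% on FPKM, 69.9% on scaled counts and 79.1% after length centring, and in the layers of controls 39.7%, 28.9% and 20.3%. It was 55.3% between the layers of Poldip2-/- and 63.8% after median centring, and 50% in the endothelial layer, where pseudocount 0.1 and scaled counts gave 13.3% and both centrings gave 33.3%. No named member that was at least 2-fold different changed direction under another pseudocount, centring or scale.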
